A study of Mus musculus with 12 samples.

Results

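The genes described here are those that 2 mouse cell lines both transcribe and that answered rebastinib differently in each. ID8 is a cancer line from the ovarian surface epithelium of C57BL6J mice, labelled wild type and epithelial. PMJ2R is a peritoneal macrophage line from C57BL6J mice that carries the v-raf and v-myc oncogenes. Each line was sequenced as untreated control cells and after 6 h in 5 nM rebastinib, with 3 libraries in each of the 4 groups. A gene was a member where every one of the 6 untreated libraries held at least 10 counts, a rule that does not use the treated libraries, and 12040 of 55421 listed genes met it. Of these, 12039 passed the expression filter and were tested. For each gene the log2 fold change of ID8 was subtracted from the log2 fold change of PMJ2R, and this difference of response was tested in 1 model over the 12 libraries (edgeR quasi-likelihood test, Benjamini-Hochberg adjusted p under 0.05 over all 16566 genes tested). A positive difference means that a transcript rose more, or fell less, in the macrophage line.

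Rebastinib is a drug that holds TIE2, the angiopoietin receptor, and the ABL kinases in an inactive form. TIE2 is best known on endothelial cells and on a subset of macrophages that promote vessel growth, and its downstream routes include the ERK and PI3 kinase cascades. Macrophages and tumour cells share most of the genes of growth, metabolism and stress, so a gene expressed in both can be compared directly between them. The lines also differ in more than cell type: they were grown in different media, only the ID8 cells were taken up with trypsin, and only PMJ2R carries the oncogenes, so these features and the cell type cannot be told apart in any difference below.

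For most genes shared by the lines the responses differed by the test, in size more often than in direction and mostly by less than 2-fold. The difference of response was called for 7617 of the 12039 members, with 2861 higher and 4756 lower in PMJ2R. Over all genes tested the called share was 52.4%, of which 21.8% of genes were higher and 30.6% lower. The drug comparison within each line called 9967 members in PMJ2R (4455 higher, 5512 lower after rebastinib) and 9901 in ID8 (4915 higher, 4986 lower). Those comparisons called 73.0% and 76.1% of all genes tested. Scaled by library totals alone, the splits were 2404 higher and 7601 lower in PMJ2R and 3020 and 7002 in ID8. Across members, the responses of the 2 lines had a Pearson correlation of 0.698. This is a description across genes, which are not independent replicates, and no library enters both responses.

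**Figure D1:**
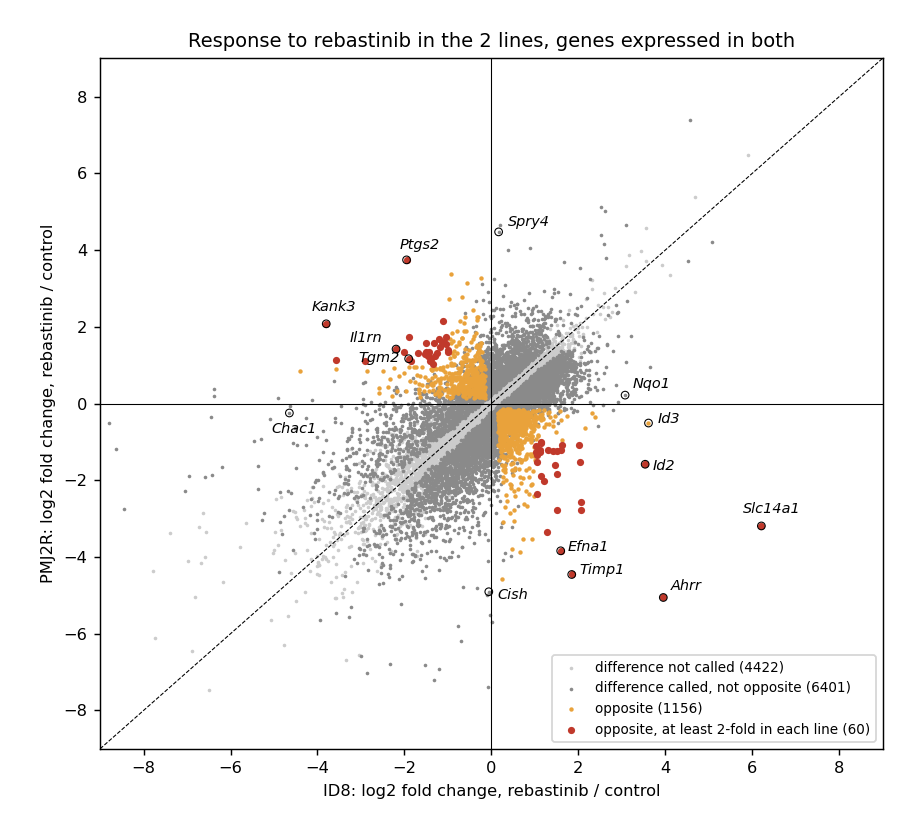
Response of each member in ID8 (horizontal axis) and PMJ2R (vertical axis), as log2 fold change of rebastinib over control, with 1 point per gene. The dashed line marks equal responses. The 60 red genes changed at least 2-fold in each line in opposite directions, and Ahrr and Slc14a1 lie farthest from the dashed line among them.

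The difference took several forms. In 799 called members both lines rose and PMJ2R rose more, and in 1208 both rose and ID8 rose more. In 1437 both fell and PMJ2R fell more, and in 612 both fell and ID8 fell more. Of those called in the drug comparison of 1 line alone, 527 rose and 688 fell in PMJ2R, and 659 rose and 439 fell in ID8. In 1216 the lines moved in opposite directions with each drug comparison and the difference called: 469 rose in PMJ2R and fell in ID8, and 747 fell in PMJ2R and rose in ID8. These 2 patterns made up 3.896% and 6.205% of members, against 4.42% and 4.8% of all genes tested. The expression rule leaves out genes under 10 counts in an untreated library, whatever they reach after treatment. Its part in these shares was not tested. With RLE size factors, the scaling of DESeq2, the counts of members were 617 and 572. The difference was at least 2-fold and called for 2664 members. Members that rose in PMJ2R and fell in ID8 had a median longest transcript of 4148 bases and 47.65% GC, members with the reverse pattern 2898.5 bases and 52.4% GC, and all members 3084 bases and 49.66% GC. Just inside the expression rule, with 10 as the smallest untreated count, 42 of 120 tested genes were called and 7 were opposite. Just outside it, with 9 as the smallest, 39 of 132 were called and 10 were opposite.

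Library totals ran from 19025504 to 27070556 counts. Transcripts that overlap ribosomal RNA took 0.0927% to 0.355% of counts in the control libraries, 1.05% to 1.60% in ID8 rebastinib libraries and 5.63% to 5.99% in PMJ2R rebastinib libraries. Ribosomal protein transcripts went from 4.68% to 5.41% up to 8.65% to 10.8% in ID8, and from 5.00% to 5.77% up to 7.70% to 8.01% in PMJ2R. The counts of calls moved with the scaling method. The median difference over all genes tested was -0.10 as reported and 0.02 with RLE size factors, and the share of called members lower in PMJ2R was 62.44% and 53.16% in turn. With library totals alone, that share was 67.53%, and only 413 of the 1216 opposite members were also opposite. With length and GC trends removed, 748 of the 1216 were also opposite. Of the 60 members that changed at least 2-fold in each line (31 up in PMJ2R, 29 down, against 39 and 22 by RLE factors), 60 were also opposite with RLE factors and 58 with library totals. Of the genes described below, the smaller change of Soat1, Scamp5, Gclc, Tfrc, Msmo1, Rfc5, Kif22, Tfeb, H2-Q4, Hdac5, Kdm6b, Bhlhe40 and Mknk1 was not called or turned its sign with library totals alone, and likewise the PMJ2R rise of Ndufv2 and the ID8 rises of Slc7a5 and Ier3. The rises of Abl2 were called in neither line with library totals. With transcript length and GC trends removed, the PMJ2R changes of Ski, Ndufv2 and Flt1 and the ID8 changes of Mrpl22, Tln1, Clock, Ier3, Abl1 and Bcr were not called or turned their sign. Genes given below as not called in 1 line could also gain a call there. With library totals alone, ID8 was called lower for Spry4, Klf6, Ero1l, Slc7a11, Cyp51, Mcm6, Chek2, Nfkbiz, Cish, Kdm5b and Rictor, and PMJ2R for Gclm, Zswim4, Cflar, Klrg2, Ermp1 and Id1. With length and GC trends removed, ID8 was called higher for Spry4, Slc7a11, Mcm6, Nfkbiz, Kdm5b and Rictor and lower for Chek2, and PMJ2R was called higher for Zyx, Zswim4 and Klrg2. The cells matched their labels. The summed level of 22 macrophage markers was 3369 to 3731 CPM (counts scaled to library size) in PMJ2R and 22.7 to 34.6 CPM in ID8. In the ID8 control libraries 9 of the 22 had no count, among them Adgre1, Itgam, Spi1 and Lyz2. However, 4 of them, Csf1r, Cd14, Cd68 and Fcgr3, had at least 10 counts in every ID8 control library. The summed level of 18 markers of ovarian surface epithelium and mesothelium was 3210 to 5017 CPM in ID8 and 0.905 to 1.95 CPM in PMJ2R.

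The 24 genes named for their opposite responses come first. The promoters of 5 of them are shown as examples of genes that turned in opposite directions in 2 lines labelled as coming from the same mouse strain. Each line below runs from 250 bases before the RefSeq start site to 50 bases after it (GRCm38.p6, gene strand). Capitals mark matches, on either strand, to 5 motifs: GCGTG, the core bound by the aryl hydrocarbon receptor (AHR), TGANTCA, bound by FOS-JUN dimers, TGACGTCA, bound by CREB, TATAAA, the TATA box, and the CArG box of serum response factor. The windows are chr1:150099781-150100080 (Ptgs2, plus strand), chr12:85473640-85473939 (Fos, plus), chr13:74292282-74292581 (Ahrr, minus), chrX:20869916-20870215 (Timp1, plus) and chr12:25096043-25096342 (Id2, minus).
Ptgs2: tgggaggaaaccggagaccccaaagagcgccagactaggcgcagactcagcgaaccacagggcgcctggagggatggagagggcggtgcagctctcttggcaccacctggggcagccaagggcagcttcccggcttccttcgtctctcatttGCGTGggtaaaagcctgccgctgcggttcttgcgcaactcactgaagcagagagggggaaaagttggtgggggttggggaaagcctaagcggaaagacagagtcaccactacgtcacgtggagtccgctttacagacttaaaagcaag
Fos: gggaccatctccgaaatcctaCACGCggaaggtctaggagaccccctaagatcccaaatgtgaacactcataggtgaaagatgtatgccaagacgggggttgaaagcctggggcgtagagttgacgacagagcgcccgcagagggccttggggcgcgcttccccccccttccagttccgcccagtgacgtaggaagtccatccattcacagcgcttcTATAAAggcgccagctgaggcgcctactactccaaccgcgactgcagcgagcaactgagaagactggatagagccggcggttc
Ahrr: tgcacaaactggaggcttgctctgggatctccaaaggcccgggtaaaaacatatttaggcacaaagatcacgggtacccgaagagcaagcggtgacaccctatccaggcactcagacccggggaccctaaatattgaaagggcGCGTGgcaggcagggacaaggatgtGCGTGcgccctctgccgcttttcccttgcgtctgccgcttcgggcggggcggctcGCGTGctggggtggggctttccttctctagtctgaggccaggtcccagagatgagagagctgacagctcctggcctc
Timp1: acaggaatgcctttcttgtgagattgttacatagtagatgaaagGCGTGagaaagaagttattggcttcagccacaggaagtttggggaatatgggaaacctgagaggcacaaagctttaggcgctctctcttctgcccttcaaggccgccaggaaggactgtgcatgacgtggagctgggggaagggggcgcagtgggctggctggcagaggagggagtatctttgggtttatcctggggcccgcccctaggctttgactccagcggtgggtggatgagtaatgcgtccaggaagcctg
Id2: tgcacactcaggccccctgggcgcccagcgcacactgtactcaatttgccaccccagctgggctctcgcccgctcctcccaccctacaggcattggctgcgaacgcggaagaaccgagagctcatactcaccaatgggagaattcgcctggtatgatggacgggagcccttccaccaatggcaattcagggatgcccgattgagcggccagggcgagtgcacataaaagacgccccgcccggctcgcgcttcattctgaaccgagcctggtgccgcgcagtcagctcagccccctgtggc

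Ahrr held 3 copies of GCGTG, beginning 107, 82 and 27 bases before the start site. Ptgs2 held 1 copy beginning at 98 bases before it, Timp1 1 at 206 bases and Fos 1 on the other strand (CACGC) at 229 bases, and the TATA box of Fos began at 33 bases. The Id2 window held none of the 5 motifs, and neither did that of Tns2, which was also read but is not shown. GCGTG was in 57.8% of the 8612 members' promoters matched, in 58.84% of those that rose in PMJ2R and fell in ID8, in 60.48% of the reverse group, and in 32.39% of all 32851 promoters. The matching shares for TGANTCA were 5.574%, 7.395%, 3.748% and 7.808%. For TGACGTCA they were 3.936%, 3.859%, 4.259% and 1.79%, for TATAAA 7.838%, 8.682%, 8.348% and 13.62%, and for the CArG box 1.347%, 2.894%, 0.8518% and 1.629%. These are counts of letters, not of binding.

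Ptgs2 encodes cyclooxygenase-2, the inducible enzyme of prostaglandin synthesis, and lies at chr1:150100031-150108227 (GRCm38). In PMJ2R it stood at 0.765, 0.918 and 0.841 CPM in the control libraries and at 13.3, 11.8 and 8.97 CPM after rebastinib. In ID8 it stood at 236, 227 and 222 CPM in control and at 48.8, 63.8 and 64.2 CPM after rebastinib. The groups did not overlap in either line, and the transcript rose 13.4-fold in the macrophage line while it fell 3.87-fold in the tumour line. The difference of response was 5.70 on the log2 scale (SE 0.206, adjusted p = 3.21e-16, edgeR). After treatment, ID8 still held more Ptgs2 than PMJ2R.

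Fos, the immediate-early partner of JUN proteins, ran from 1.68, 1.55 and 1.79 CPM to 5.15, 4.99 and 4.90 CPM in PMJ2R, and from 8.74, 8.39 and 6.96 CPM to 1.83, 3.36 and 3.19 CPM in ID8. Plaur, the receptor of the protease urokinase, went from 2.37, 2.06 and 3.50 CPM to 8.45, 8.47 and 8.27 CPM in PMJ2R and from 44.3, 42.5 and 47.7 CPM to 18.9, 20.8 and 18.6 CPM in ID8. For both genes the untreated tumour cells held more transcript than the untreated macrophages. Rebastinib turned that order around for Fos, where every treated PMJ2R library lay above every treated ID8 library, and left it in place for Plaur. The differences of response were 3.10 (SE 0.257) for Fos and 2.88 (SE 0.18) for Plaur.

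Il1rn, the secreted antagonist of the interleukin-1 receptor, rose from 2.95, 2.6 and 3.19 CPM to 7.62, 7.87 and 7.83 CPM in PMJ2R. In ID8 it fell from 134, 132 and 138 CPM to 28.4, 30.0 and 30.1 CPM. Tgm2, a transglutaminase that cross-links proteins, rose 2.25-fold in PMJ2R and fell 3.74-fold in ID8, and it shares exons with Rprd1b and Gm20412 on the opposite strand, so their reads may be mixed. Tle3, a corepressor of the Groucho family, was among the few of this group with similar levels in both lines. It went from 46.1, 53.7 and 58.0 CPM to 124, 140 and 135 CPM in PMJ2R and from 114, 103 and 102 CPM to 39.9, 35.9 and 41.8 CPM in ID8, so treatment reversed which line held more.

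The other genes with the largest rises in PMJ2R against falls in ID8 were Kank3, Tns2, Napepld, Ggn, Tbc1d9 and Otub2. Kank3, a cytoskeletal ankyrin-repeat gene, had the widest difference of response among them at 5.88 (SE 0.189), rising 4.22-fold in PMJ2R and falling 13.9-fold in ID8, with exons shared with Rps28 on the opposite strand. Tns2 encodes tensin-2, a focal adhesion protein. It was far more abundant in the tumour line and ran from 168, 165 and 156 CPM to 45.8, 40.2 and 44.7 CPM in ID8 and from 0.364, 0.380 and 0.526 CPM to 1.46, 1.74 and 1.02 CPM in PMJ2R. Napepld, which makes N-acylethanolamine lipids, was instead a mainly macrophage transcript, rising from 67.4, 73.0 and 71.1 CPM to 179, 172 and 181 CPM in PMJ2R while falling 4.06-fold in ID8.

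**Figure D2:**
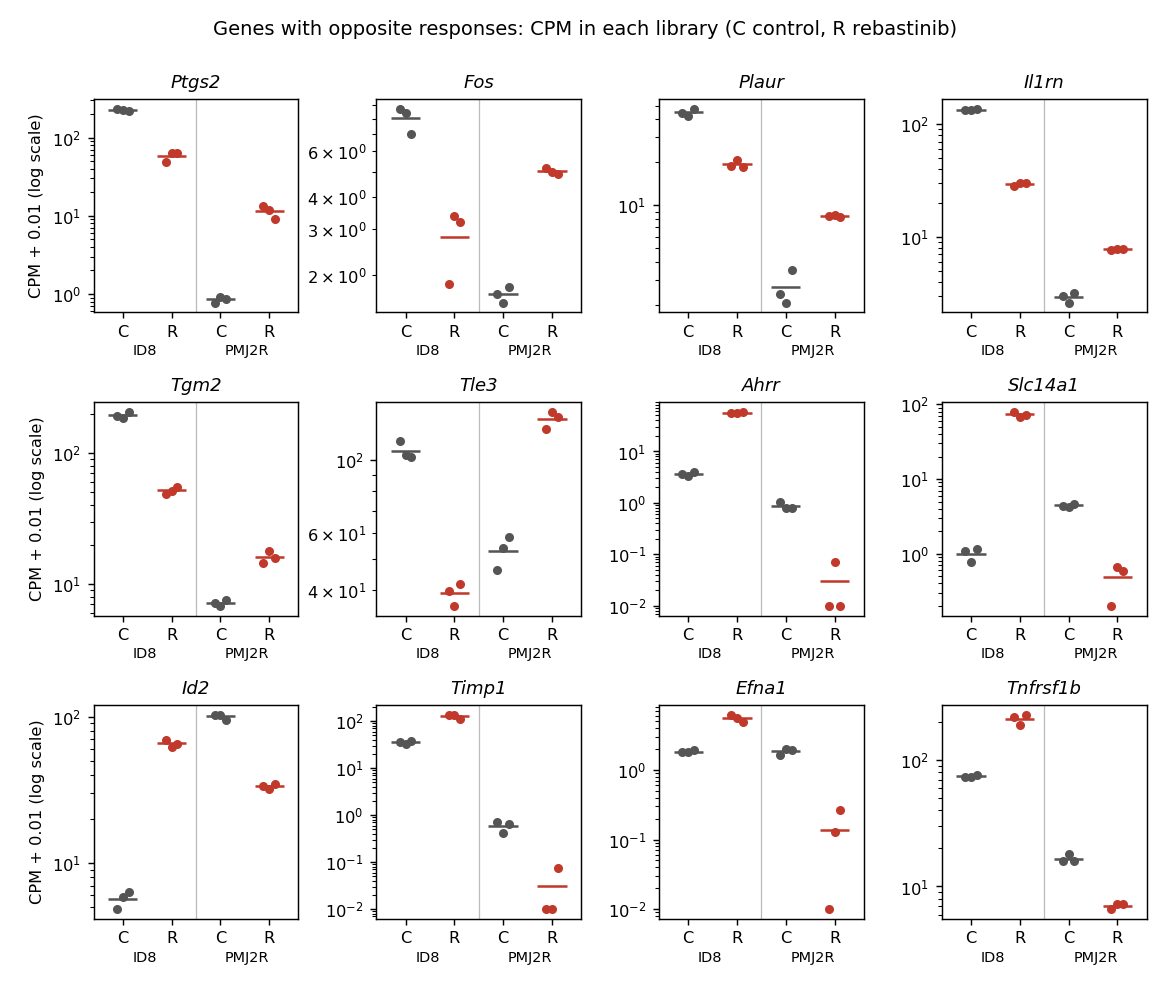
CPM in each library (points) and group mean (short lines) of 12 genes with opposite responses, on log axes with 0.01 added, for control (grey) and rebastinib (red) cells of ID8 (left) and PMJ2R (right). The first 6 genes rose in PMJ2R and fell in ID8, the last 6 did the reverse, and the control and treated points overlap in neither line.

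The reverse pattern was led by Ahrr, the repressor of AHR signalling and itself a target of AHR. In ID8 it rose from 3.65, 3.36 and 3.90 CPM to 55.3, 54.9 and 59.0 CPM, a 15.5-fold change. In PMJ2R it stood at 1.06, 0.792 and 0.771 CPM in control, with 76 counts over the 3 libraries, and had 1 count in the 3 rebastinib libraries. The control to rebastinib ratio in PMJ2R was 41.75, with a 95% counting interval from 7.27 to 1670. The change in ID8 rests on 292 control and 3263 treated counts, and that in PMJ2R on few. Of the AHR list, which holds the receptor Ahr and its partner Arnt besides targets, 10 genes were expressed in both lines. Their response was lower in PMJ2R for 6, higher for 2 and not called for 2.

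Within that AHR list the genes did not share 1 pattern. Tiparp, the AHR-induced ADP-ribosyltransferase, rose in both lines, by 2.12 in ID8 and 1.07 in PMJ2R on the log2 scale. Xdh, xanthine dehydrogenase, rose in ID8 (0.97) and fell in PMJ2R (-0.64). Slc7a5, an amino acid transporter, rose more in PMJ2R (1.37 against 0.19), and Cdkn1b, the cyclin-dependent kinase inhibitor p27, fell more there (-2.29 against -0.93). The list's median response was 0.84 in ID8 and 0.29 in PMJ2R, and with library totals alone the PMJ2R median was below 0, at -0.21.

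Slc14a1 encodes the urea transporter UT-B, on chromosome 18. Its difference of response was -9.40 on the log2 scale (SE 0.257, adjusted p = 3.5e-18, edgeR). In ID8 it rose from 1.06, 0.755 and 1.13 CPM to 79.4, 68.5 and 71.7 CPM, and in PMJ2R it fell from 4.41, 4.24 and 4.59 CPM to 0.191, 0.661 and 0.573 CPM. A transcript that was higher in the macrophage line before treatment was thus higher in every tumour line library after it.

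Id2 and Id3 encode inhibitors of basic helix-loop-helix transcription factors and are classical targets of BMP signalling through SMAD proteins. Id2 rose from 4.82, 5.82 and 6.30 CPM to 69.7, 61.9 and 65.3 CPM in ID8 and fell from 103, 102 and 95.5 CPM to 33.5, 32.1 and 34.8 CPM in PMJ2R. Id3 rose from 7.41, 6.23 and 6.59 CPM to 96.1, 75.5 and 76.3 CPM in ID8 and fell from 61.0, 56.2 and 52.9 CPM to 40.2, 38.7 and 40.7 CPM in PMJ2R. Both genes began far lower in the tumour line and ended higher there. Their differences of response were -5.12 (SE 0.119) and -4.12 (SE 0.135). Id1, named after its values were seen, rose in ID8 (1.86) and did not pass the test in PMJ2R (0.21, adjusted p = 0.108), where it was called higher with RLE size factors (0.27) and lower with library totals (-0.28). All 15 members of the BMP, SMAD and ID list were called, with the response higher in PMJ2R for 7 and lower for 8. The list also holds the paired SMAD corepressors Ski and Skil, which moved against each other: Skil rose in PMJ2R (1.34) and fell in ID8 (-1.01), while Ski fell in PMJ2R (-0.35) and rose in ID8 (1.34).

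Several further genes of this pattern encode secreted or surface proteins. Timp1, an inhibitor of matrix metalloproteinases at chrX:20870166-20874735 (GRCm38), rose 3.6-fold in ID8, from 36.5, 32.7 and 37.5 CPM to 134, 136 and 114 CPM. In PMJ2R it had 50 counts over the control libraries and 1 over the rebastinib libraries, a ratio of 27.46 with a 95% counting interval from 4.708 to 1106. Efna1, the membrane-bound ligand ephrin-A1, rose from 1.78, 1.77 and 1.90 CPM to 6.15, 5.53 and 4.90 CPM in ID8 and fell from 1.64, 2 and 1.93 CPM to 0, 0.12 and 0.255 CPM in PMJ2R. The lines held like amounts of Efna1 before treatment and moved apart after it. Tnfrsf1b, which encodes the tumour necrosis factor receptor TNFR2, rose from 73.9, 74.2 and 77.0 CPM to 221, 191 and 228 CPM in ID8 and fell from 16, 18 and 15.8 CPM to 6.61, 7.21 and 7.32 CPM in PMJ2R. Tsku, a secreted leucine-rich protein, rose 2.84-fold in ID8 and fell 6.84-fold in PMJ2R. The other genes of this group were Fhdc1, Cgref1, Cbr3, Depdc7 and Hmgn3, with differences of response from -3.35 to -4.83. Of the 24 genes named for their opposite responses, 24 showed no overlap of control and treated libraries in either line. They were picked for large changes in these same libraries, so this lends them no separate support. The share without overlap was not counted over all members.

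Gene lists were then read by the direction of the difference of response. List members counted as higher or lower in PMJ2R had a higher or lower response there, not a higher or lower level. The lists are not tests. As they count members only, each count is to be set beside 2861 higher and 4756 lower of the 12039 members. Among all genes tested the shares were 21.8% higher and 30.6% lower. The median difference over all members was -0.18. The lists with the most positive medians were the immediate-early genes, cholesterol synthesis, ATF4 targets and ERK feedback genes, and the most negative were DNA replication, AHR targets, mitochondrial ribosomal proteins and mitosis.

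**Figure D3:**
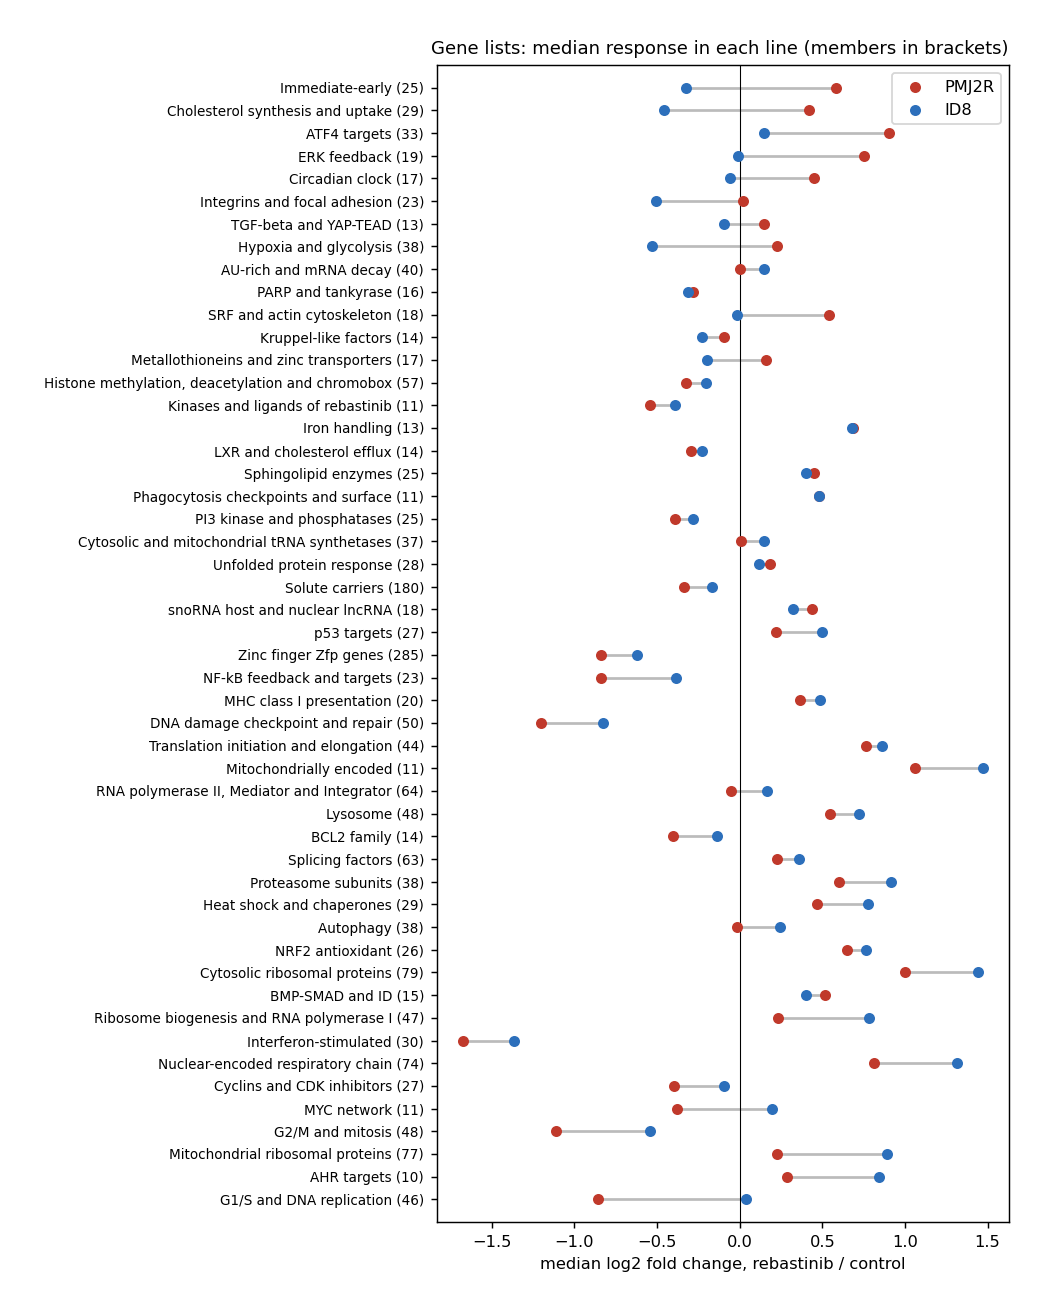
Median log2 fold change of rebastinib over control in PMJ2R (red) and ID8 (blue) for each gene list with at least 10 members expressed in both lines, ordered by the median of the members' differences. The immediate-early list has medians of 0.58 in PMJ2R and -0.32 in ID8, and the DNA replication list has -0.86 and 0.04.

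ERK, the kinase at the end of the RAF cascade, switches on immediate-early transcription factors and its own inhibitors, the Sprouty proteins and dual-specificity phosphatases. Of 19 ERK feedback genes, 13 were higher and 3 lower in PMJ2R, and of 25 immediate-early genes 17 were higher and 4 lower. In the PMJ2R drug comparison 14 immediate-early genes rose and 8 fell, and their median of 0.58 was 0.08 with library totals alone. Spry4, a Sprouty protein, rose from 1.97, 2.91 and 3.19 CPM to 58.5, 64.6 and 57.4 CPM in PMJ2R. In ID8 it stood at 58.8, 60.9 and 56.7 CPM in control and 62.3, 72.8 and 63.0 CPM after rebastinib and did not pass the test (0.17, adjusted p = 0.0781). Treated macrophage cells thus reached the level that tumour cells held with or without the drug.

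Dusp5, a nuclear phosphatase of ERK, rose in PMJ2R from 1.97, 3.07 and 2.59 CPM to 19, 16.3 and 17.2 CPM and fell in ID8 from 93.1, 87.6 and 101 CPM to 61.8, 57.7 and 56.5 CPM. Ier2, an immediate-early gene, rose in PMJ2R from 17.0, 17.6 and 21.1 CPM to 164, 167 and 163 CPM and fell 1.49-fold in ID8. Junb, a JUN family transcription factor, rose 4.79-fold in PMJ2R and fell 1.52-fold in ID8, with exons shared with Prdx2 on the opposite strand. Ier3 and Epha2 rose in both lines and more in PMJ2R, and Klf6 rose in PMJ2R (1.93) with -0.02 in ID8. Myc, named after its values were seen, fell in PMJ2R from 64 counts over the control libraries to 1 over the rebastinib libraries, a ratio of 35.15 with a 95% counting interval from 6.088 to 1410. In ID8 Myc went from 125, 124 and 124 CPM to 91.0, 107 and 97.5 CPM.

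The hypoxia and glycolysis list holds targets of HIF transcription factors. Of its 38 members, 21 were higher and 3 lower in PMJ2R. Its median response was 0.23 in PMJ2R and -0.53 in ID8, the former falling below 0 (-0.27) with library totals alone. Vegfa, the vascular endothelial growth factor, rose from 30.6, 31.6 and 39.0 CPM to 184, 176 and 187 CPM in PMJ2R and fell from 296, 272 and 276 CPM to 197, 212 and 216 CPM in ID8. The lines lay far apart in Vegfa before treatment and close together after it. Ero1l, an oxidase of the endoplasmic reticulum, rose 6.27-fold in PMJ2R, with -0.05 on the log2 scale in ID8 (adjusted p = 0.496). Pdk1, the kinase that closes the entry of pyruvate to the citric acid cycle, fell in both lines, by 0.42 in PMJ2R and 2.80 in ID8. Slc16a3, the lactate exporter MCT4, likewise fell by 1.09 in PMJ2R and 4.48 in ID8.

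ATF4 is the transcription factor of the integrated stress response and drives amino acid synthesis and uptake. Of 33 ATF4 targets, 26 were higher and 3 lower in PMJ2R, with a median response of 0.90 there and 0.15 in ID8 (-0.28 in ID8 with library totals alone). Ddit4, an inhibitor of mTOR complex 1 that is also on the hypoxia list, rose from 33.4, 36.8 and 36.8 CPM to 233, 248 and 225 CPM in PMJ2R and fell from 246, 228 and 256 CPM to 121, 130 and 123 CPM in ID8. Treated PMJ2R cells thus came to about the level of untreated ID8 cells. Treated ID8 cells stayed well above untreated PMJ2R cells. Trib3, a pseudokinase induced by ATF4, rose 1.89-fold in PMJ2R and fell 4.74-fold in ID8. Chac1, which degrades glutathione, had -0.25 in PMJ2R, called as reported but not with RLE factors (-0.19) or TMM factors from genes expressed in both lines (-0.17). In ID8 it fell from 76.8, 78.5 and 85.5 CPM to 3.32, 3.30 and 3.02 CPM in ID8.

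Slc7a11 and Cth, both genes of cysteine supply, rose in PMJ2R and did not pass the test in ID8. For Slc7a11 the ID8 value turned with the scaling, at -0.51 (called) with library totals and 0.30 (called) with length and GC trends removed. Slc7a11, the cystine importer, rose from 11.9, 12 and 12.1 CPM to 89.8, 86.1 and 93 CPM in PMJ2R and stood at 65.5 to 72.9 CPM in ID8 control and 56.3 to 70.8 CPM after rebastinib. Cth, the cystathionine gamma-lyase that makes cysteine from methionine, rose 25-fold in PMJ2R, from 1.42, 1.65 and 1.93 CPM to 45.4, 40.7 and 39.6 CPM. In ID8 Cth did not pass the test (0.19, adjusted p = 0.281). The differences of response were 2.99 (SE 0.113) for Slc7a11 and 4.46 (SE 0.223) for Cth.

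The cholesterol list holds the enzymes of the mevalonate and sterol pathway with their regulators SREBP, SCAP and INSIG. Of 29 members, 22 were higher and 3 lower in PMJ2R, and 10 rose in PMJ2R and fell in ID8. The median response was 0.42 in PMJ2R and -0.46 in ID8, but with library totals alone the PMJ2R median was -0.08. Soat1, which esterifies cholesterol for storage, fell from 1344, 1323 and 1255 CPM to 228, 252 and 273 CPM in ID8 and rose 1.34-fold in PMJ2R. Cyp51, lanosterol demethylase, rose 2.65-fold in PMJ2R with -0.10 in ID8 (adjusted p = 0.0941), a value called with RLE factors (-0.17). Msmo1, a sterol demethylation enzyme, rose in PMJ2R (0.30) and fell in ID8 (-1.0).

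Among cytoskeletal genes the response was more often higher than lower in PMJ2R. Of 18 genes of serum response factor and the actin cytoskeleton, 8 were higher and 4 lower in PMJ2R, and of 23 integrin and focal adhesion genes 13 were higher and 2 lower. Actg1, cytoplasmic gamma actin, rose in PMJ2R (1.89) and fell in ID8 (-0.58). Tln1, talin, which links integrins to actin, rose in PMJ2R (0.66) and fell in ID8 (-0.50). Zyx, zyxin, fell in ID8 (-1.59). Its PMJ2R value was 0.28, called with TMM factors from genes expressed in both lines (0.36).

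Cell cycle genes went the other way. Of 46 genes of the G1/S step and DNA replication, 37 were lower in PMJ2R and 9 were not called. In the drug comparisons, 41 of them fell in PMJ2R and 1 rose, while in ID8 21 fell and 14 rose. The ID8 median of 0.04 was -0.03 with RLE factors and -0.39 with library totals, and of 12 opposite members 1 was counted with library totals. Mcm6, a subunit of the replicative helicase, fell from 419, 419 and 388 CPM to 159, 152 and 152 CPM in PMJ2R and stood at 309, 311 and 314 CPM in ID8 control and 316, 318 and 308 CPM after rebastinib. Uhrf1, which guides DNA methylation to new strands, fell in both lines, 5.75-fold in PMJ2R and 1.76-fold in ID8. Rfc5, a subunit of the clamp loader, fell in PMJ2R (-1.25) and rose in ID8 (0.45).

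Of 48 genes of G2/M and mitosis, 40 were lower in PMJ2R and 3 higher. After rebastinib 43 of them fell in PMJ2R and 34 in ID8, with medians of -1.11 and -0.54. Ccna2, cyclin A2, went from 320, 324 and 320 CPM to 105, 110 and 112 CPM in PMJ2R and from 199, 210 and 208 CPM to 140, 149 and 144 CPM in ID8, and it shares exons with Exosc9 on the opposite strand. Kif22, a chromosome-binding kinesin, fell in PMJ2R (-1.19) and rose in ID8 (0.34). The 50 checkpoint and repair genes were closer between the lines, with 25 lower and 7 higher in PMJ2R (26 and 3 with library totals) and medians of -1.20 and -0.83. Chek2, the checkpoint kinase, fell in PMJ2R (-2.30) with -0.08 in ID8. In cultures, a fall of these transcripts in every cell and fewer cycling cells cannot be told apart.

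**Figure D4:**
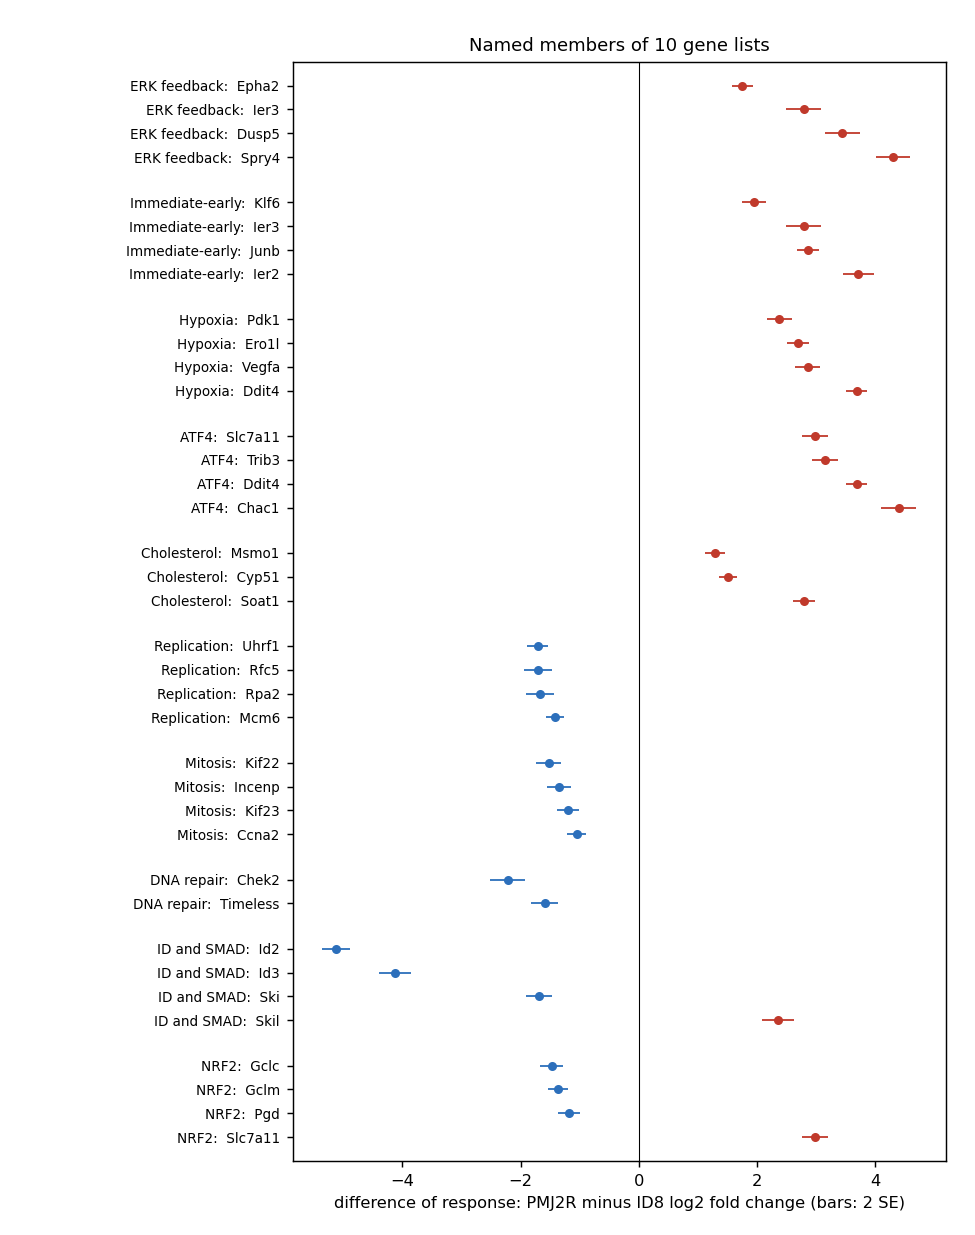
Difference of response (PMJ2R minus ID8 log2 fold change, with bars of 2 SE) of up to 4 named members of each of 10 gene lists. Those of the ERK, immediate-early, hypoxia, ATF4 and cholesterol lists lie above 0 and those of the replication, mitosis and repair lists below it, as the naming rule took the members with the smallest p.

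Of 77 mitochondrial ribosomal protein genes, 67 were lower and 3 higher in PMJ2R, and in the drug comparisons 41 rose in PMJ2R and 65 in ID8. Their median response was 0.89 in ID8 and 0.22 in PMJ2R, and with library totals alone the latter was -0.27. Mrpl22, a protein of the large subunit, rose from 23, 23 and 25.7 CPM to 50.3, 43.2 and 40.5 CPM in ID8 and fell from 41.5, 40.4 and 43.0 CPM to 22.5, 22.9 and 24.2 CPM in PMJ2R.

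The 74 nuclear-encoded genes of the respiratory chain included 61 lower in PMJ2R and 13 not called, with medians of 1.31 in ID8 and 0.81 in PMJ2R. Of 11 mitochondrially encoded genes, 3 were lower and 2 higher in PMJ2R and 6 were not called, with mt-Co1, a subunit of complex IV, higher there by 0.36. Ndufv2, a subunit of complex I, rose 2.20-fold in ID8 and 1.17-fold in PMJ2R. Of 79 cytosolic ribosomal protein genes, 57 were lower in PMJ2R and 22 not called, with medians of 1.44 and 1.00. With RLE size factors these counts were 44 lower and 2 higher, and 34 lower and 1 higher. The cytosolic count was 37 lower and 5 higher with length and GC trends removed. These genes took more of the counts in treated libraries of both lines, as given above, and the ribosomal RNA share rose most in PMJ2R. With TMM factors from genes that leave out these classes, 37 cytosolic ribosomal protein genes were lower in PMJ2R. The part of these shares in the result was not tested further. Of 47 genes of ribosome biogenesis and RNA polymerase I, 32 were lower and 3 higher in PMJ2R (26 and 9 with RLE factors), among them Nop16, which fell in PMJ2R (-1.0) and rose in ID8 (0.74).

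NRF2 is the transcription factor of antioxidant and detoxifying genes. Of 26 targets expressed in both lines, 14 were lower and 5 higher in PMJ2R (12 and 7 with length and GC trends removed). Gclm, the modifier subunit of the enzyme that starts glutathione synthesis, rose from 74.1, 74.7 and 72.4 CPM to 188, 179 and 183 CPM in ID8 and stood at 86.6, 89.2 and 90.8 CPM in PMJ2R control and 84.0, 90.9 and 82.4 CPM after rebastinib. Gclc, its catalytic partner, rose in ID8 (0.43) and fell in PMJ2R (-1.04). Nqo1, a quinone reductase controlled by both NRF2 and AHR and named after its values were seen, rose in ID8 from 39.5, 40.8 and 45.0 CPM to 386, 346 and 326 CPM. In PMJ2R it stood at 0.583, 0.570 and 0.561 CPM in control and 0.572, 0.540 and 0.891 CPM after rebastinib (edgeR adjusted p = 0.562).

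The list of metallothioneins and zinc transporters was split, 5 higher and 6 lower in PMJ2R of 17. Mt1, a metal-binding metallothionein, rose 12.6-fold in ID8, from 19.4, 20.5 and 24.2 CPM to 337, 249 and 221 CPM, and 1.95-fold in PMJ2R, from 206, 198 and 232 CPM to 406, 421 and 411 CPM. Of 13 iron genes, 5 were higher and 6 lower in PMJ2R (5 and 4 with RLE factors). Steap3, a ferric reductase of endosomes, fell in PMJ2R (-2.08) and rose in ID8 (0.68), and Tfrc, the transferrin receptor, did the reverse (0.50 and -0.34).

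Immune lists held genes of both directions. Of 30 interferon-stimulated genes, 21 fell in PMJ2R and 22 in ID8, with medians of -1.68 and -1.37. The response was lower in PMJ2R for 15 and higher for 5 (12 and 8 with RLE size factors). Irf1, an interferon-induced transcription factor, fell in PMJ2R (-1.17) and rose in ID8 (0.65), and Ifit2 fell in both (-5.22 and -2.09). Of 23 genes of NF-kB feedback, 7 were higher and 7 lower (7 and 11 with library totals). Nfkbiz, an atypical inhibitor of the NF-kB family, rose in PMJ2R (2.49) with 0.10 in ID8. In the presentation list of MHC class I, Psmb10, a subunit of the immunoproteasome, fell in PMJ2R (-0.42) and rose in ID8 (1.59), and H2-Q4, a nonclassical class I gene of a family with near-identical copies, moved the other way (0.37 and -1.67). Lgals3, the sugar-binding galectin-3, rose in both lines and more in ID8 (3.10 against 1.08).

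The response of circadian clock genes was mostly higher in PMJ2R, with 10 of 17 higher and 3 lower. Clock, the positive arm of the oscillator, rose in PMJ2R (1.13) and fell in ID8 (-0.44), and Bhlhe40, which represses it, did the same (0.45 and -0.70). Among chromatin genes, 17 of 57 were higher and 20 lower, a balance that turned to 26 higher and 15 lower with RLE factors. Kdm6b, a demethylase of the repressive H3K27 mark, rose in PMJ2R (0.40) and fell in ID8 (-2.58), and Hdac5, a deacetylase, fell in PMJ2R (-2.13) and rose in ID8 (0.45). Of the BCL2 family, 7 of 14 were lower and 4 higher (5 and 5 with RLE factors), among them Bcl2l11, the death-promoting protein BIM, which fell in PMJ2R (-1.01) and rose in ID8 (0.91).

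Some transcripts changed in 1 line and lay within 0.25 of no change on the log2 scale in the other. This class rests on the scaling: with library totals alone, all 6 genes given here were called in the other line too, with Cish at -0.48 and Kdm5b at -0.63 in ID8 and Zswim4 at -0.44, Cflar at -0.41, Klrg2 at -0.47 and Ermp1 at -0.60 in PMJ2R. Called in PMJ2R and not in ID8 as reported, Cish, an inhibitor of cytokine signalling through STAT5, fell from 55.3, 57.2 and 61.9 CPM to 2.10, 1.86 and 1.84 CPM. In ID8 it stood at 5.05, 4.95 and 4.41 CPM in control and 3.82, 5.29 and 4.72 CPM after rebastinib. Kdm5b, a histone demethylase, rose in PMJ2R (2.71) with -0.20 in ID8. Its ID8 value was called lower with RLE factors (-0.27) and with TMM factors from genes expressed in both lines (-0.21), and higher with length and GC trends removed (0.21). These one-sided changes were tested as differences, which were -4.85 (SE 0.193) for Cish and 2.91 (SE 0.138) for Kdm5b.

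Called in ID8 and not in PMJ2R as reported, Zswim4 fell 5.46-fold and Cflar, an inhibitor of caspase-8, by 1.59 on the log2 scale, with 0.05 and 0.08 in PMJ2R. In PMJ2R, Zswim4 was called higher with length and GC trends removed (0.49), and Cflar with TMM factors from genes expressed in both lines (0.16). Klrg2 rose from 1.03, 1.02 and 1.17 CPM to 9.70, 6.73 and 7.83 CPM in ID8 and stood between 33.7 and 36.6 CPM in PMJ2R. Ermp1 fell in ID8 (-1.80) with -0.10 in PMJ2R.

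The smallest p-values also picked out genes with strong falls in the macrophage line. Arhgef18, an exchange factor for RhoA, fell by 5.80 in PMJ2R and by 0.77 in ID8. Pml, the organiser of nuclear bodies, fell by 3.98 and 0.77. Specc1 fell in PMJ2R (-2.67) and rose in ID8 (0.82), and Scamp5, a vesicle membrane protein, went from 236, 234 and 232 CPM to 26.3, 29.1 and 27.7 CPM in PMJ2R with a rise of 1.19-fold in ID8. Galnt11, which starts O-linked glycosylation, was the reverse, rising in PMJ2R (1.11) and falling in ID8 (-2.91).

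Of the kinases and ligands that rebastinib is known to address or that lie next to them, 11 of 26 were expressed in both lines. Tek, which encodes TIE2, was not among them. It had no count in any ID8 library. In PMJ2R the summed level of 9 endothelial markers, Tek included, was only 0.637 to 1.21 CPM. Csf1r, the receptor of the macrophage growth factor, fell from 290, 270 and 277 CPM to 148, 146 and 144 CPM in PMJ2R and rose from 6.42, 6.88 and 6.45 CPM to 14.7, 11.1 and 11.7 CPM in ID8. Fyn, a SRC family kinase, rose in PMJ2R from 81.1, 82.5 and 95.1 CPM to 149, 150 and 155 CPM and fell 1.29-fold in ID8. Mknk1, a kinase of the initiation factor eIF4E, also rose in PMJ2R (0.35) and fell in ID8 (-0.91).

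The ABL kinases themselves moved in the same direction in both lines. Abl1 fell in both, 2.51-fold in PMJ2R and 1.31-fold in ID8, and the difference of response was -0.94 (SE 0.111). Abl2 rose in both, by 0.53 and 0.49, and its difference of 0.04 (SE 0.0931) was not called. Of the ABL partners, Crkl rose in both lines (1.38 and 0.89), Crk fell in both (-1.65 and -1.29), and Bcr fell in both with no difference called (-0.32, adjusted p = 0.0885). Mknk2 fell more in PMJ2R (-1.70 against -0.65), Flt1, a receptor of VEGF, fell less there (-0.54 against -1.07), and Lyn, a SRC family kinase, rose slightly more (1.02 against 0.73). The differences for Crk, Flt1 and Lyn were small and lost their call in some alternatives.

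Broader lists of cell machinery also held genes of both directions. Solute carriers had 53 of 180 higher and 70 lower, zinc finger Zfp genes 53 of 285 and 95, and splicing factors 14 of 63 and 37. With RLE factors the solute carriers had 61 in each direction and the Zfp genes 72 higher and 79 lower. Lysosomal genes had 7 of 48 higher and 25 lower, proteasome subunits 2 of 38 and 23, heat shock genes and chaperones 4 of 29 and 17, and autophagy genes 10 of 38 and 19. With RLE factors these were 10 and 20 for lysosomal genes, 6 and 17 for the proteasome and 7 and 15 for chaperones, and autophagy genes had 6 and 24 with library totals. Within autophagy, Tfeb, the transcription factor of lysosome formation, fell in PMJ2R (-2.05) and rose in ID8 (0.27), a rise not called with RLE size factors either. The PI3 kinase list had 9 of 25 in each direction (10 higher and 6 lower with RLE factors), with Rictor, a subunit of mTOR complex 2, rising in PMJ2R (1.29) against -0.11 in ID8.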

How the data were processed

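Messenger RNA of 12 libraries was counted by gene. The deposited values are raw counts, whole numbers for 55421 Ensembl genes. Reads went through FastQC, STAR 2.6.1c and featureCounts on GRCm38, and DESeq2 is listed too, per the submitters' processing notes. For the annotation, strand setting and handling of reads with several matches the sources used here give nothing. Genes that share exons with another gene are therefore uncertain and are named as such for the main examples. Groups and replicate numbers were read from sample titles. No label tells whether replicates are separate cultures, and p-values then reflect the spread between libraries alone, which may be technical. Replicate pairs were compared by chi-square and none agreed within sampling noise.

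Symbols and positions came from GENCODE vM21 on the same build, and 181 identifiers (0.00261% of counts) had no symbol. All 12 libraries entered 1 model with a mean for each group: edgeR 4.0.16 in R 4.3.3, TMM scaling, default expression filter, robust quasi-likelihood test and Benjamini-Hochberg adjustment. The SE was taken as the absolute log2 fold change over the root of F. A response was opposite where both drug comparisons and their difference passed 0.05 with opposite signs. CPM of single genes use the TMM factors and those of markers use library totals. The procedure was tested on simulated data in which few genes changed, and only in PMJ2R. That simulation does not cover the dependence on scaling seen here. The factors of 1 alternative came from genes expressed in both lines, without ribosomal RNA overlapping, mitochondrially encoded and ribosomal protein genes.

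Genes named were, among called protein-coding members with a proper name, the 12 of each direction with the largest smaller change in opposite directions, 8 per direction with the smallest p, 6 per line that changed in that line alone, up to 4 per list with the smallest p, and every kinase list member. Values of a few genes that met this rule are not reported here. Members and the 51 gene lists were chosen with earlier results of these data known. Alternatives were DESeq2 1.42.0, limma-voom (limma 3.58.1), other scalings, filters, removal of length and GC trends, a replicate block and leaving out each library. Intervals from counts cover counting error only. The chemotherapy arms named in the series design are not analysed here. RefSeq promoters matched 8613 of 12039 members.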

Additional observations from a re-analysis of the deposited data

Results flagged for a closer look

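The 24 genes named for opposite responses were singled out because their effects in the 2 lines differed by the test of the difference itself (edgeR, adjusted over all genes tested). With 3 libraries a group, single libraries were not tested as outliers. The difference of response, PMJ2R minus ID8 on the log2 scale, was positive for Kank3 (5.88), Ptgs2 (5.70), Tns2 (3.63), Il1rn (3.61), Napepld (3.35), Fos (3.10), Tgm2 (3.07), Ggn (2.89), Plaur (2.88), Tbc1d9 (2.81), Tle3 (2.77) and Otub2 (2.52). Negative values were found for Slc14a1 (-9.40), Ahrr (-9.01), Timp1 (-6.30), Efna1 (-5.43), Id2 (-5.12), Cgref1 (-4.83), Fhdc1 (-4.62), Hmgn3 (-4.62), Tsku (-4.28), Cbr3 (-3.56), Depdc7 (-3.35) and Tnfrsf1b (-2.75). The fitted values of Ahrr and Timp1 rest on 1 count in treated PMJ2R cells and depend on the prior count. For Kank3, Ggn, Tbc1d9, Tgm2 and Hmgn3, annotated exons overlap those of an antisense gene.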

How the results depend on the processing

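The count of called members lay between 6719 (mean of at least 5 CPM) and 7660 (library totals) over the other tests, scalings and filters, and between 7103 and 7820 with 1 library left out. The count of opposite members lay between 1074 and 1309 with 1 library left out. At least a 2-fold difference, tested as such with glmTreat, held for 1201 members, 509 higher and 692 lower in PMJ2R. Opposite responses of at least 2-fold in each line numbered 60. Those lower in PMJ2R fell from 29 to 18 with a mean of at least 5 CPM, to 17 with at least 50 counts in every untreated library and to 17 with at least 10 counts in all 12 libraries, and those higher in PMJ2R from 31 to 13 with at least 50 counts, settings that hold fewer genes.

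Replicate numbers did not pair the libraries: same-number correlations of deviations ran from -0.167 to 0.0662. With a replicate block 7130 members were called and 1110 were opposite, and 1106 of the latter were opposite without it. The PMJ2R fall of Chac1 lost its call with the block (-0.245).

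Abl2 turned its sign, to -0.234 (length and GC trends removed, adjusted p = 0.00533), -0.0294 (library totals) and -0.0188 (no expression filter), and ran from -0.0205 to 0.103 with 1 library left out. Lyn lost its call with library totals (adjusted p = 0.0903), no filter (0.112) and without ID8 control library 3 (0.0539) or ID8 rebastinib library 1 (0.0507). Flt1 lost it with no filter (0.075) and without PMJ2R rebastinib library 1 (0.0567), and Crk with DESeq2 (0.0573) and RLE factors (0.0624). Bcr was called with trends removed (0.0413) and without PMJ2R control library 1 (0.0359). The causes were not tested. The lowest counts set the precision: Ahrr, Timp1 and Myc had 1 count in all treated PMJ2R libraries.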
